A study of Mus musculus with 6 samples.

Results

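Plasma cell differentiation genes were examined in peritoneal cavity (PC) B1a cells of mice that lack the interleukin 2 receptor alpha chain. The genes are Prdm1, Irf4, Xbp1, Igj (now named Jchain), 2010001M09Rik (now named Mzb1), Sdc1, Ell2 and Creb3l2. They were chosen by name, and each is read by 1 probe, so that 8 of the 55681 non-control probes and 8 of the 36163 gene names on the array are described. Sorted B1a cells were profiled on Agilent mouse arrays with a single dye, with 3 arrays for each of 2 genotypes. Knockout samples came from p40-/- CD25-/- mice and control samples from p40-/- CD25+/- mice. CD25 is the receptor chain IL-2Rα, encoded by Il2ra, and p40 is a subunit of interleukins 12 and 23, so that both groups lack p40 and the controls keep 1 working Il2ra allele. All mice were females on a C57Bl/6 background, 7 weeks old, with at least 3 mice per sample. The deletions are carried in the germline and are not restricted to B cells, and the p40-/- CD25-/- mice develop autoimmune cholangitis. The labels do not say that replicates were separate animals in separate preparations, so p-values measure the spread between these samples.

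Plasma cells are the antibody-secreting end stage of the B cell lineage. IRF4 and BLIMP-1, the product of Prdm1, shut down the B cell programme and open the secretory one, in which XBP1 enlarges the endoplasmic reticulum (ER), ELL2 drives the switch to secreted immunoglobulin heavy chain, and the J chain and MZB1 serve the assembly of secreted IgM. CREB3L2 is an ER-anchored transcription factor for genes of vesicle transport, and syndecan 1 (CD138, the product of Sdc1) is the surface marker by which plasma cells are sorted. B1a cells are the main source of natural IgM, and some of them secrete antibody without becoming full plasma cells.

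Every value below is the log2 of the processed signal of a probe minus the log2 of the 75th percentile of its array, unless it is called a processed signal. The level of a probe is compared between arrays and not with the level of another probe. Raw brightness differed by genotype, the 75th percentile being 252 to 272 for controls and 66.5 to 162 for knockouts. Testing with limma was done for the 24757 probes that stood well above background on every array of either genotype. Il2ra, the deleted gene, had values of 1.62, 1.13 and 1.35 in controls and of -0.31, -0.59 and 0.86 in knockouts, so its probe still gave a signal on all 3 knockout arrays, where the lowest values well above background were -3.50, -2.47 and -3.67. Il12b, the gene of p40, was at -1.92, -2.01 and -2.25 in controls and at -2.52, -1.91 and -1.80 in knockouts, and its probe thus gave a signal although p40 is deleted in all the mice. The B cell genes Cd79a, Cd79b, Ms4a1 and Blnk and the 6 B1a genes of a fixed list, among them Cd5 and Itgam, stood well above background on each of the 6 arrays.

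Igj was lower in knockout than in control B1a cells, by 3.78-fold, while Xbp1 and Creb3l2 were lower by less than 2-fold without overlap of the groups. For 2010001M09Rik and Ell2 the mean difference was under 0.1 log2 units. All 8 genes had a lower mean in knockout samples, where 60.2% of all 18256 tested genes did. That count includes Sdc1, which was not well above background there and turned to 0.43 with normexp background correction, and 2010001M09Rik and Ell2, which turned to 0.0016 and 0.056 with scaling on the median of detected probes. For genes of B cell function the study also named changes at a lower fold cut, which is not used here. Over the whole array it called a gene changed at 2-fold or more where the unadjusted p did not exceed 0.05. Of the 8 probes, 1 passed these thresholds downward and 0 upward, against 1.26% and 2.38% of all tested probes. With limma p-values adjusted over all probes 0 of the 8 passed 0.05, where 0.0808% of probes and 0.0657% of genes did, and 3 had an unadjusted p of at most 0.05, against 24.6% of all tested probes in either direction. Without control 3 that last count was 1. There 1052 of all 18256 tested genes were lower at that p, against 2369 with all 6 arrays. The 3 knockout values lay below the 3 control values for 3 of the 8 genes, against 21.6% of all tested genes, and above them for 0, against 14.7%. The median log2 difference was -0.50 over the 8 genes and -0.12 over all tested genes. In these bulk samples fewer cells of a type and less RNA per cell cannot be told apart.

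**Figure D1:**
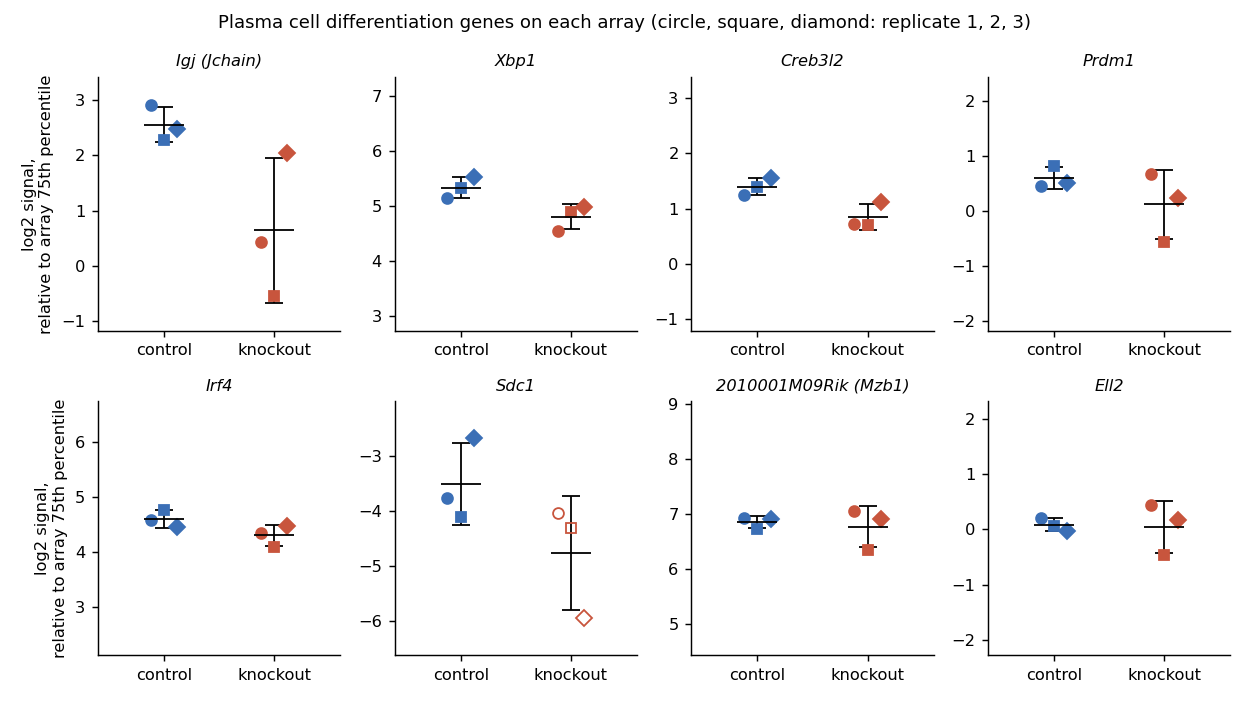
Signal of the 8 genes on each array, as log2 relative to the 75th percentile of the array; blue points are control and red points knockout arrays, open points were not well above background, and bars are the mean and SD of 3 arrays. Igj was at 2.29 to 2.91 on the control arrays and at -0.55 to 2.04 on the knockout arrays, with the groups apart also for Xbp1 and Creb3l2; every panel spans the same number of log2 units.

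Igj encodes the J chain, the small polypeptide that joins IgM pentamers and IgA dimers and lets them bind the polymeric immunoglobulin receptor. Its probe lies at chr5:88949919-88949978 on the minus strand (mm9). On the control arrays Igj was at 2.91, 2.29 and 2.47, and on the knockout arrays at 0.42, -0.55 and 2.04. The control arrays lay close together, whereas knockout 3 came near to the lowest control value and the other 2 knockout arrays lay well below it. The means were 2.56 ± 0.32 and 0.64 ± 1.31 (SD, n = 3 each). The log2 difference was -1.92 (standard error 0.589, 95% confidence interval -3.30 to -0.54, limma adjusted p = 0.133, unadjusted p = 0.0131). It passed the 2-fold thresholds of the study in limma and did not pass after adjustment over all probes. By the methods' t-test, the test that the study names, it did not pass these thresholds either. Before scaling, the processed signal was 1983, 1231 and 1511 on the control and 175, 45.5 and 666 on the knockout arrays. The order of the knockout arrays in Igj, with knockout 2 lowest and knockout 3 highest, was also their order in brightness, at 66.5, 131 and 162 for knockout 2, 1 and 3, and in Il2ra. The part of array brightness in the result was not tested. Without knockout 3 the log2 difference was -2.62 (limma adjusted p = 0.0487), and without knockout 2 it was -1.33 (limma adjusted p = 0.204).

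The promoter windows below run from 250 bases before to 50 bases after the start of the gene, 5′ to 3′ on the strand of the gene, and are from RefSeq (GRCm38.p6). They are shown for the 3 genes whose groups did not overlap and for Ell2, whose groups did, and 7 of the 8 genes had such a window. Capitals mark matches to any of 5 motifs searched on both strands. These were TGACGT, the core of the cyclic AMP response element that CREB and CREB3 proteins can bind, the ER stress response element, AGNGAAAG, a short form of the BLIMP-1 site, the composite element of an ETS factor with an IRF, and TATAAA, the TATA box. They were found in 7.51%, 0.119%, 8.63%, 2.72% and 13.6% of 32851 promoter windows of this length, respectively. In TGACGTCA the matches on both strands overlap.
Igj, chr5:88527848-88528147, minus strand: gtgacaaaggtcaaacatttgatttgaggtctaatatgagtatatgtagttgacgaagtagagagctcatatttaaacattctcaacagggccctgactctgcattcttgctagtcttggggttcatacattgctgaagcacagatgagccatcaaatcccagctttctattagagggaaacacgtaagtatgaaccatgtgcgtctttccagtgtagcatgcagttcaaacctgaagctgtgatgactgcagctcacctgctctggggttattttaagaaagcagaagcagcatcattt
Xbp1, chr11:5520391-5520690, plus strand: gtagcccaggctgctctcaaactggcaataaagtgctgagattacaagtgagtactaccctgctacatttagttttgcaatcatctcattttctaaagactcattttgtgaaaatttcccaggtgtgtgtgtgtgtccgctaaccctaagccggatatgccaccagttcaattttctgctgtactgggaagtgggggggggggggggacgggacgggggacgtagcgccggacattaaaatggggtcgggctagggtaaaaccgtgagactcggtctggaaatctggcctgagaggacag
Creb3l2, chr6:37442099-37442398, minus strand: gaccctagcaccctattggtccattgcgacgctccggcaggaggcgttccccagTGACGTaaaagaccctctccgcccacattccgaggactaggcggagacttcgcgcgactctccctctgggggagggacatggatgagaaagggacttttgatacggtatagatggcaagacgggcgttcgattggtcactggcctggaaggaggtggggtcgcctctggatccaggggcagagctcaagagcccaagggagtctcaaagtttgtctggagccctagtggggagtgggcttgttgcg
Ell2, chr13:75707234-75707533, plus strand: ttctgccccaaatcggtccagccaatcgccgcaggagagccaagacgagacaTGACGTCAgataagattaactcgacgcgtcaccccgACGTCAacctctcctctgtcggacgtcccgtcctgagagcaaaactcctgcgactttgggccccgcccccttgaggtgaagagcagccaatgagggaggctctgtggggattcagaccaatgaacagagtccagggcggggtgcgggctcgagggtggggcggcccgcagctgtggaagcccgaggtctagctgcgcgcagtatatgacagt
The windows of Igj and Xbp1 held none of the 5 motifs, that of Creb3l2 held TGACGT once, at position -196 from the start, and that of Ell2 held 3 matches to it, of which 2 overlap. TGACGT was thus present in the window of a gene whose knockout arrays were all lower and in that of a gene whose groups overlapped. Of the windows not shown, also of genes whose groups overlapped, those of Prdm1 and Sdc1 held none of the 5 motifs. That of Irf4 held TATAAA once and no TGACGT. A match is a description of the letters and not of a bound site.

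Xbp1 encodes the transcription factor that is spliced by IRE1 in the unfolded protein response and that enlarges the secretory apparatus. Its probe lies at chr11:5425816-5425875 on the plus strand (mm9). Xbp1 was at 5.15, 5.32 and 5.54 on the control arrays and at 4.55, 4.90 and 4.99 on the knockout arrays. The groups were apart, with a gap between the nearest values that was smaller than the spread within either group. The means were 5.34 ± 0.20 and 4.81 ± 0.24 (SD, n = 3 each), a 1.44-fold difference. On the log2 scale it was -0.52 (standard error 0.185, 95% confidence interval -0.96 to -0.09, limma adjusted p = 0.157). The log2 difference was -0.35 with quantile normalization (limma adjusted p = 0.287) and -0.80 with normexp (limma adjusted p = 0.011). With normexp 9313 of the 24757 tested probes had an adjusted p under 0.05. The probe does not tell the spliced from the unspliced transcript as far as the files say, so the value stands for total Xbp1 RNA.

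Creb3l2, which encodes an ER-membrane relative of ATF6 that is released by cleavage in the Golgi, had a difference of nearly the same size. With a probe at chr6:37281208-37281267 on the minus strand (mm9), it was at 1.25, 1.40 and 1.56 on the control and at 0.73, 0.70 and 1.11 on the knockout arrays. The groups did not overlap, and knockout 3 was again the knockout array nearest to the controls. The means were 1.40 ± 0.15 and 0.85 ± 0.23 (SD, n = 3 each), a 1.47-fold difference. The log2 difference was -0.55 (standard error 0.176, 95% confidence interval -0.97 to -0.14, limma adjusted p = 0.14). Both intervals lie short of a 2-fold decrease, and both genes stayed under the 2-fold threshold in all 16 alternatives.

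The 2 regulators that start the plasma cell programme were read next. Prdm1 encodes BLIMP-1, a repressor of B cell identity genes, and its probe lies at chr10:44157089-44157148 on the minus strand (mm9). Prdm1 was at 0.45, 0.82 and 0.51 on the control arrays and at 0.67, -0.57 and 0.24 on the knockout arrays. The groups overlapped, since knockout 1 lay between control values and only knockout 2 lay far below them. The log2 difference was -0.48 (standard error 0.31, 95% confidence interval -1.21 to 0.25, limma adjusted p = 0.343). It was -0.14 without knockout 2 and -0.76 without knockout 1. Irf4, whose product is needed both for activated B cells and for plasma cells, has a probe at chr13:30858532-30858591 on the plus strand (mm9). It was at 4.59, 4.77 and 4.45 on the control and at 4.34, 4.10 and 4.48 on the knockout arrays, where knockout 3 lay just above the lowest control. The log2 difference was -0.30 (standard error 0.168, 95% confidence interval -0.70 to 0.09, limma adjusted p = 0.289). It was -0.10 with quantile normalization, -0.12 with the deposited values, -0.20 without knockout 2 and -0.60 with normexp (limma adjusted p = 0.0289). With normexp 9313 of the 24757 tested probes had a limma adjusted p under 0.05, against 20 as first fitted. The intervals as first given allow at most a 2.31-fold decrease of Prdm1 and a 1.62-fold decrease of Irf4, and an increase of at most 1.19-fold and 1.07-fold.

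2010001M09Rik, which encodes the ER chaperone MZB1 (pERp1) of immunoglobulin assembly in marginal zone and B1 cells, was read by 10 spots of 1 probe on each array, on chromosome 18. It was at 6.93, 6.73 and 6.91 on the control arrays and at 7.05, 6.35 and 6.91 on the knockout arrays. The highest and the lowest array were both knockout arrays, so the groups overlapped fully. The spots of 1 array had an SD of 0.0176 to 0.0383, while the SD between arrays was 0.11 for controls and 0.37 for knockouts. The log2 difference was -0.09 (95% confidence interval -0.58 to 0.41, limma adjusted p = 0.798). This interval leaves room for a decrease of at most 1.5-fold and an increase of at most 1.32-fold. With normexp the log2 difference was -0.41 (limma adjusted p = 0.137), so these limits hold only for the scaling used here.

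Ell2, the elongation factor that favours the secretory poly(A) site of the immunoglobulin heavy chain, has a probe at chr13:75908979-75909038 on the plus strand (mm9). Ell2 was at 0.20, 0.07 and -0.03 on the control arrays and at 0.45, -0.47 and 0.16 on the knockout arrays. The control values lay within the range of the knockout values, and knockout 2 was the lowest as for 2010001M09Rik, Prdm1, Irf4, Creb3l2 and Igj. The log2 difference was -0.04 (95% confidence interval -0.61 to 0.54, limma adjusted p = 0.934), which leaves room for a change of at most 1.52-fold downward and 1.45-fold upward.

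Sdc1, the gene of the plasma cell surface marker CD138, was dim on all arrays, with a probe at chr12:8799383-8799442 on the plus strand (mm9). Its processed signal was 19.5, 14.6 and 42.4 on the control and 7.94, 3.36 and 2.62 on the knockout arrays. It was well above background on all 3 control arrays and on none of the knockout arrays. Relative to the 75th percentile it was at -3.76, -4.11 and -2.68 on the control and at -4.04, -4.31 and -5.95 on the knockout arrays, but the knockout values are at background and have no order. The fitted log2 difference was -1.25 (limma adjusted p = 0.216), and -1.61 without knockout 1 and -0.66 without knockout 3, but these are differences from background values, and no fold is given because the knockout values have only an upper bound that lies above the control mean. With normexp background correction and an offset of 50 the difference was 0.43, and the cause of that turn was not tested.

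**Figure D2:**
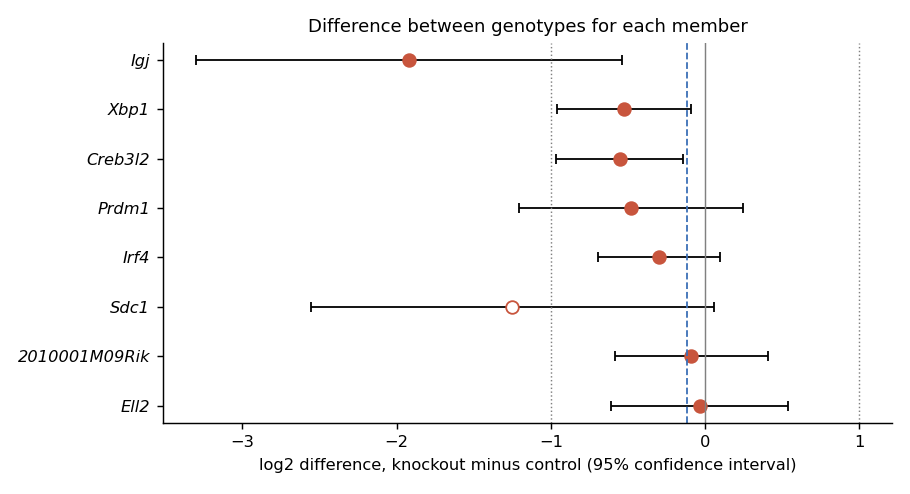
Log2 difference between genotypes, knockout minus control, with its 95% confidence interval from limma; dotted lines mark a 2-fold change, the dashed line is the median of all tested genes (-0.12) and the open point is a gene not well above background in knockout samples. The intervals of Igj, Xbp1 and Creb3l2 lie below 0, and those of the other 5 genes span it.

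The other genes around the programme were read from lists, each gene by its brightest tested probe. Most genes of the ER stress sensors and of the XBP1 targets had a lower mean. In knockout samples 26 of 28 tested genes had a lower mean, with a median log2 difference of -0.37 against -0.12 for all tested genes, but none reached the 2-fold thresholds, where 1.28% of all genes did in this direction and 60.2% had a lower mean. At an unadjusted p of at most 0.05 and any fold, a threshold added after the values were seen, 12 of the 28 were lower and 0 higher, against 13.0% and 11.5% of all tested genes. The 3 knockout values lay below the 3 control values in 14 of the 28, against 21.6% of all tested genes, and above them in 0, against 14.7%. Derl1, which serves the export of misfolded proteins from the ER and was picked after its values were seen, was at 3.36, 3.51 and 3.63 on the control and at 2.70, 2.39 and 2.97 on the knockout arrays (log2 difference -0.81, limma adjusted p = 0.102). Hspa5, the ER chaperone BiP, picked in the same way, was at 6.26, 6.37 and 7.03 against 5.69, 6.17 and 6.35, with overlap (log2 difference -0.49, limma adjusted p = 0.278).

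The level of a gene bears on this reading. Over all tested genes the median log2 difference was 0.11 in the dimmest of 4 equal bands of mean level and -0.04, -0.21 and -0.18 in the next bands. The upper 2 bands hold 8 and 15 of the 28 ER genes, and also Igj, Xbp1, Creb3l2, Irf4 and 2010001M09Rik. In those bands the knockout values lay all below the control values for 29.8% and 32.0% of genes. The part of this trend in the difference of the ER genes was not tested. Under quantile normalization their median was -0.30, against -0.07 over all tested genes. At an unadjusted p of at most 0.05, 8 were lower there, where 1799 of all 18256 tested genes were. Without control 3 the count was 4, where 1052 of all tested genes were lower, against 2369 with all 6 arrays as first fitted. With normexp their median was -0.60, against -0.10 over all tested genes, and 1 ER gene passed the 2-fold thresholds.

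In the list of other plasma cell genes, 1 of 13 tested genes passed the 2-fold thresholds upward, against 2.26% of all tested genes, and 0 downward. The list held 2 called genes without control 3 and with normexp. This was Lag3, an inhibitory receptor that regulatory plasma cells and activated T cells carry, at -3.23, -3.28 and -3.68 on the control and at -1.08, -1.69 and -2.57 on the knockout arrays (log2 difference 1.62, limma adjusted p = 0.101). The median of the list was -0.12, as was that of all tested genes, but -0.20 against -0.07 with quantile normalization, -0.21 against -0.08 with the deposited values, -0.41 against -0.10 with normexp and -0.03 against -0.02 with the median of detected probes. The list's median was -0.03 without knockout 2, -0.06 without control 1 and -0.25 without knockout 3. Derl3, a relative of Derl1 that secretory cells express and that was picked after its values were seen, was at 2.91, 3.21 and 3.42 against 2.32, 2.19 and 2.58, without overlap (log2 difference -0.82, limma adjusted p = 0.102).

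Of 12 transcription factors that hold the B cell state or counter BLIMP-1, none passed the 2-fold thresholds, 6 had a lower mean and the median was -0.01, which turned to 0.07 under quantile normalization. The knockout values lay above the control values for 2 of them and below for 3, against 14.7% and 21.6% of all tested genes, so these counts are near the background. Pax5, Irf8 and Bcl6 are among these and were picked after their values were seen. Pax5, which BLIMP-1 represses, was at 0.50, 0.12 and 0.34 on the control and at 0.97, 0.91 and 0.78 on the knockout arrays (log2 difference 0.57, limma adjusted p = 0.121). Irf8 was at 3.07, 3.10 and 3.19 against 3.96, 3.79 and 3.68 (log2 difference 0.69, limma adjusted p = 0.0959). Bcl6, a repressor of Prdm1, had a log2 difference in the other direction of -0.60 (limma adjusted p = 0.133). The other 2 factors whose knockout values lay below the control values were Mitf and Ebf1. Their log2 differences were -0.55 and -0.46 (limma adjusted p = 0.159 and 0.164).

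The lists built around the other members held no gene past the 2-fold thresholds. The median log2 difference was -0.28 over 12 genes of the super elongation complex and its partners, in which ELL2 works, -0.31 over 7 genes of the CREB3 family with the proteases and coat proteins that act with it, and -0.34 over 9 genes of syndecans and heparan sulphate synthesis. With normexp the median of the CREB3 list turned to 0.05, and with quantile normalization that of the syndecan list was -0.14 and with the deposited values -0.16. Without knockout 2 the 3 medians were -0.16, -0.19 and -0.17. At an unadjusted p of at most 0.05, 3 genes of the first list were lower and 0 higher, against 13.0% and 11.5% of all tested genes. The lower count was 0 without control 1 or control 3, 1 with quantile normalization, 2 without knockout 1 or knockout 2 and 5 without knockout 3. Over all 18256 tested genes the lower count was 2369 as first fitted and 1799 with quantile normalization. It was 1608, 1655 and 1052 without control 1, 2 or 3, and 1717, 1894 and 2787 without knockout 1, 2 or 3. By the same threshold the CREB3 list held 1 lower and 1 higher and the syndecan list 0 lower and 1 higher. The lower count of the CREB3 list was 0 without control 1, control 2, control 3 or knockout 2, and that of the syndecan list was 2 without control 1 and 1 without knockout 2. Of 10 names of immunoglobulin heavy chain constant genes, 1 is a gene name on the array and it had no tested probe, so the antibody genes themselves are not described here.

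**Figure D3:**
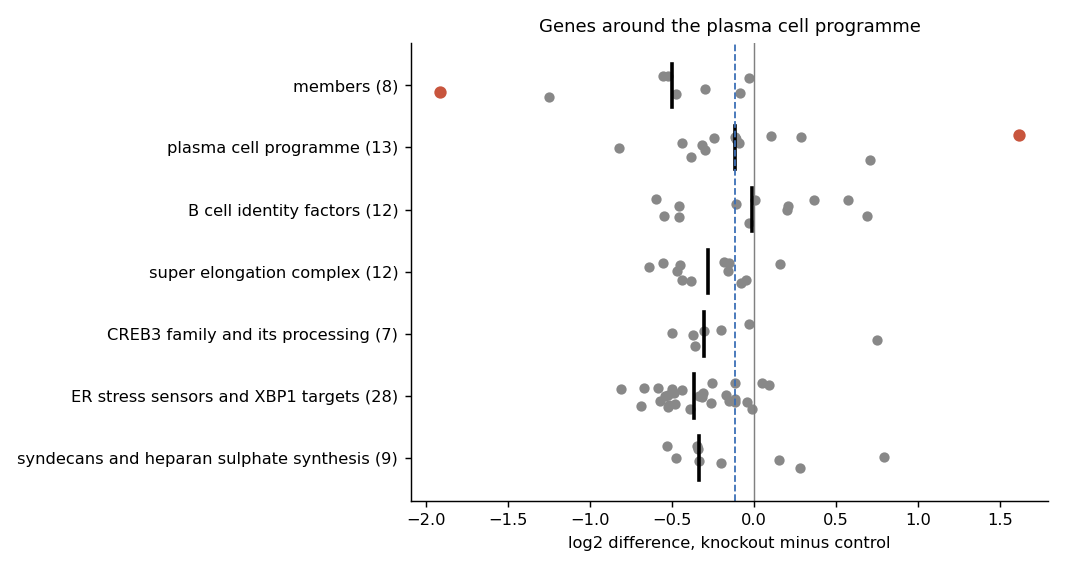
Log2 difference between genotypes for every tested gene of the 8 members and of 6 lists around them, with the number of tested genes in brackets; black bars are list medians, red points passed the 2-fold thresholds and the dashed line is the median of all tested genes. Only Igj and Lag3 are red, and the 28 ER genes centre at -0.37.

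Genes of other cells were read because Prdm1 and Irf4 are also transcribed in T cells and Xbp1 in many cells. Of 10 T cell genes, 7 were tested and 2 passed the 2-fold thresholds upward, against 2.26% of all tested genes. The count was 0 by the methods' t-test, 1 with quantile normalization, the deposited values, no filter or the replicate block, and 1 without control 2, control 3, knockout 2 or knockout 3. Cd3d was at -2.10, -3.30 and -2.78 on the control and at -2.54, -1.14 and -0.28 on the knockout arrays, and Thy1 at -2.14, -3.29 and -3.75 against -1.57, -1.73 and 0.51. Of the other tested T cell genes, Cd3e, Lck and Cd4 had log2 differences of 0.60, 0.48 and 0.33, and Cd3g and Cd2 of -0.28 and -0.15. The summed level of the list was 8.07 to 8.14 on the control and 7.79 to 8.25 on the knockout arrays. Cd2 alone was at 8.02 to 8.07 on the control and at 7.69 to 8.16 on the knockout arrays, so it makes up most of the sum. B cells also transcribe Cd2 and Lck, and the sum cannot show differences of dimmer genes such as Cd3d and Thy1. Of 12 macrophage genes, Lyz2 and Mrc1 passed downward (log2 difference -1.08 each), against 1.28% of all tested genes. All 12 had a lower mean, against 60.2% of all tested genes, and 10 did with quantile normalization. Their median log2 difference of -0.27 was not firm, since it was -0.06 without control 1, -0.08 without knockout 1, -0.59 without control 3 and -0.71 without knockout 2. The called count was 0 with the median of detected probes and without knockout 1, 1 with quantile normalization, the deposited values or the methods' t-test, 1 without control 1, control 2 or knockout 3, and 3 without control 3 or knockout 2. The summed level was 5.27 to 6.43 against 4.95 to 5.79. Of 9 mesothelial genes, 2 were tested, and Krt18 was lower in knockout samples (log2 difference -1.81), while Krt8 had a log2 difference of -0.71 (limma adjusted p = 0.17). The other 7, among them Msln and Wt1, were well above background on no array. Mcpt4 of mast cells was at 0.68, -0.44 and -2.88 on the control arrays and was well above background on 1 of 3 knockout arrays, and it passed the 2-fold thresholds only with some settings. Of the granulocyte and mast cell list, 2 genes were tested and 1 passed downward, against 1.28% of all tested genes, and the count was 0 with the median of detected probes, normexp, no filter, the filter on all 6 arrays, 1 probe per gene, the methods' t-test or the replicate block, 0 without control 1, control 2, knockout 1 or knockout 2, and 2 without control 3. Of 5 NK cell genes, Ncr1, Klrb1c and Klrd1 were well above background on no array. Prf1 was detected on all 6 arrays with a log2 difference of 0.15 (limma adjusted p = 0.647). Gzma was at -2.13, -3.72 and -5.27 on the control and at -2.50, -2.31 and -1.98 on the knockout arrays, with 2 of 3 control arrays well above background and overlap of the groups (log2 difference 1.44, limma adjusted p = 0.236). The summed level of the NK list was -0.82 to -0.52 on the control and -0.54 to 0.05 on the knockout arrays. The limma adjusted p of Cd3d, Thy1, Lyz2, Mrc1 and Krt18 was 0.0769 to 0.189. The cells had been sorted as B1a cells by surface markers. The part of such cells in the values of the 8 genes was not tested.

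Among 9715 other genes with a symbol, all of them well above background throughout, the 3 with the highest Pearson correlation to Igj across the 6 arrays were Trappc4 (r = 0.998), Golga2 (r = 0.998) and Stx18 (r = 0.997). Trappc4 was at 4.98, 4.83 and 4.88 on the control and at 4.34, 4.01 and 4.72 on the knockout arrays, in the same order of arrays as Igj but with a log2 difference of -0.54. The correlations rest on 6 arrays in 2 groups that share the same scaling and are a description of likeness.

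**Figure D4:**
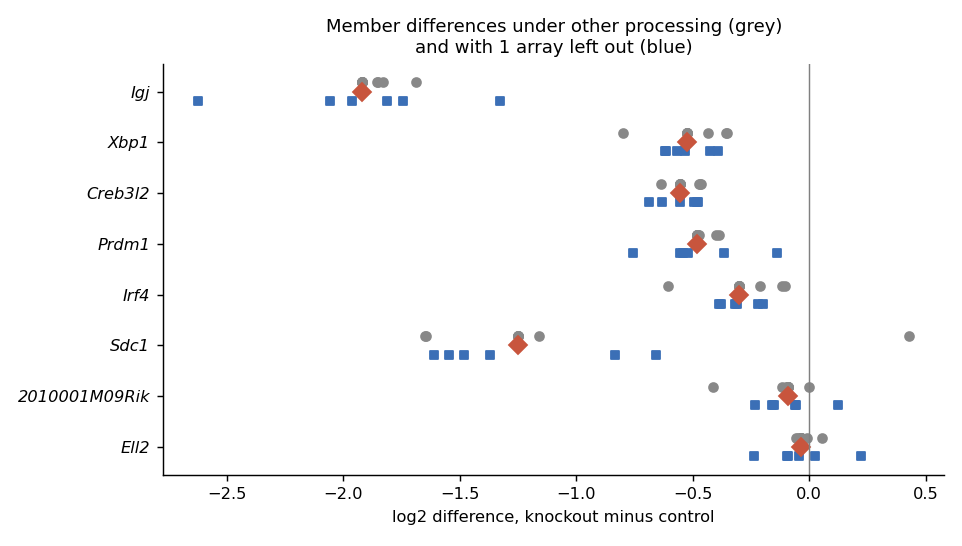
Log2 difference of each gene as reported (red diamonds), under 10 other ways of processing the same arrays (grey) and with each of the 6 arrays left out in turn (blue); Sdc1 has no value under the filter on all 6 arrays. Igj lies between -2.62 and -1.33 throughout, Xbp1 and Creb3l2 stay below 0, and Sdc1, 2010001M09Rik and Ell2 have values on both sides of 0.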

How the data were processed

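PC B1a cells were sorted by the authors, and their RNA was hybridized to Agilent arrays, 1 sample per array, and read with Feature Extraction 10.7.1.1, as the submitters' processing notes say. The authors deposited the spot intensity of each array, background-subtracted and detrended within the array and not scaled between arrays. They also deposited a table of log2 values whose sorted columns differ by at most 0.000545, so it is quantile normalized, though the methods do not name a scaling. The files give the same slide and the same scan for all 6 arrays.

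From the intensities, log2 of the processed signal minus that of the array's 75th percentile over 59305 non-control spots was computed. Outlier spots (163 to 251 per array) were dropped before averaging over a probe. Probes well above background on all 3 arrays of a genotype and measured on at least 2 of each entered a 2-group fit in R 4.3.3 with limma 3.58.1, with Benjamini-Hochberg adjustment over all 24757 probes. With 3 arrays against 3, an exact permutation test cannot give a p below 0.1. For genes of the lists the brightest tested probe was taken. Members and lists were chosen with earlier results of these data known. All probes of the members are described; other genes are named where they passed the 2-fold thresholds, mark B and B1a cells, or as stated.

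The fit was checked on simulated data. Alternatives were 10 other ways of processing or testing and leaving out each array in turn. Probe coordinates are in mm9, as the files give them. The number of arrays limits the precision. A single B cell gene of the marker lists is not reported here.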

Additional observations from a re-analysis of the deposited data

How the results depend on the processing

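Igj kept its direction in all 16 alternatives and passed the 2-fold thresholds in 15, with a limma adjusted p of 0.00202 to 0.321, the exception being the methods' t-test. Xbp1, Creb3l2, Prdm1 and Irf4 also kept theirs. The sign turned for 2010001M09Rik (0.0016) and Ell2 (0.056) with scaling on the median of detected probes, and for Sdc1 (0.43) with normexp. With 1 array left out, 2010001M09Rik ranged from -0.23 to 0.12 and Ell2 from -0.24 to 0.22.

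Of the 8 probes, 1 passed the 2-fold thresholds. With quantile normalization 2 did, with the deposited log2 values 2, by the methods' t-test 0, and with 1 array left out 1 to 2. The added probe was Sdc1 each time. Its knockout values were at background, so no decrease of Sdc1 is read from these counts. None of the 8 passed the adjusted p. With normexp 4 did (Igj, Xbp1, Creb3l2 and Irf4), where 9313 of all 24757 tested probes did. With 1 array left out 0 to 1 of the 8 did. Of all tested probes, 900 passed the 2-fold thresholds; 232 did with normexp, 18975 with no filter on dim probes and 592 with the filter on all 6 arrays, and 744 to 1540 with 1 array left out, the most without knockout 3. Of the 900, 65.4% were higher in knockout samples, against 44.4% with quantile normalization, 43.2% with the deposited values and 78.4% with the median of detected probes. At an adjusted p under 0.05 there were 20 probes, and 6 with quantile normalization, 6 with the deposited values, 9313 with normexp, 2 without a filter, 96 with the filter on all 6 arrays, 7 with 1 probe per gene, 1 by the methods' t-test (which gave 612 at the 2-fold thresholds), 1 with the replicate block, and 2 to 115 with 1 array left out. The cause of these shifts was not tested. The counts of the lists moved by over 1.5 times in 34 of 208 values.

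Same-numbered arrays deviated together only weakly (r = 0.175, 0.0573 and 0.12), so the numbers were not taken as pairs, although each array correlated best with its own number. The replicate block left 904 probes past the 2-fold thresholds and changed the call of none of the 8 members.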
